A study of Sus scrofa with 12 samples.

Results

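Lysine acetyltransferases were followed in porcine muscle satellite cells, the stem cells of skeletal muscle, through the transcripts of 10 listed genes. They were chosen by gene name, and 9 of the 10 matched a row among the 31908 genes of the deposited table. These were CREBBP, EP300, NCOA3, KAT2A, KAT2B, KAT5, KAT6B, KAT7 and KAT8. KAT6A was not matched by name and is not analysed here. FPKM values, which are reads scaled to gene length and library size, had to reach 1 in 3 or more of the 12 libraries for a gene to be tested. All 9 genes passed this filter, as did 11636 genes in all.

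Lysine acetyltransferases move an acetyl group from acetyl-CoA to lysines of histones and other proteins. CREBBP encodes CBP and EP300 encodes p300, a pair of related coactivators that acetylate histone H3 at enhancers and serve as partners of MYOD1 in muscle cells. KAT2A (GCN5) and KAT2B (PCAF) form a second pair, and PCAF is known to acetylate MYOD1. KAT5 (TIP60), KAT6A (MOZ), KAT6B (MORF), KAT7 (HBO1) and KAT8 (MOF) make up the MYST family, whose members work in multi-subunit complexes.

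The study measured RNA of cells in an arm labelled CBP and of control cells, labelled WT in the sample titles and NC in the table, by RNA-seq. Each arm was collected in proliferation (0h) and in differentiation (60h), with 3 libraries in each of the 4 groups. The treatment text names SGC-CBP30, an inhibitor of the CBP and p300 bromodomains, with a dose of 5 uM/ml and an exposure of 48 h for proliferating and 60 h for differentiating cells. The same text is attached to all 12 samples, while the arm names are entered as genotypes. The labels thus do not settle whether the CBP arm stands for the compound alone, nor what the NC cells received. Both arms carry C3H as their cell line, a name better known from mouse, although organism and genome build are pig. CREBBP and EP300 transcripts were present in all 6 CBP-arm libraries, at levels above those of the NC libraries of the same stage. Nothing in the labels says whether the 3 libraries of a group came from separate cultures or animals, so the p-values measure the spread between these libraries.

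The libraries held 16095335 to 19155240 reads, as recovered from the steps of the FPKM values. Each of the 9 genes rested on 228 to 3286 reads in a library. The first and second principal components of log2(FPKM + 1) held 49.4% and 34.9% of the variance. Libraries of a group resembled each other (lowest r = 0.9931) more than those of other groups (highest r = 0.9658), and no library stood apart. All 10 muscle cell markers, such as PAX7, MYOD1 and DES, passed the filter. Of 8 endothelial markers, 7 averaged under 1 FPKM, and so did 6 of 8 immune cell markers, with 1 of these at 0 in every library.

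Per kilobase, EP300 and KAT8 had the highest levels of the 9 genes, and KAT6B and KAT5 the lowest. EP300 ranked first at 60h, with 19.3 ± 0.0751 FPKM in CBP-arm cells and 15.7 ± 0.495 FPKM in NC cells (SD, n = 3 each). KAT8 ranked first at 0h, with 19.9 ± 0.744 FPKM in CBP-arm cells and 21.1 ± 1.38 FPKM in NC cells. CREBBP came next after EP300 and KAT8 in CBP-arm cells at 60h, at 14.0 ± 1.01 FPKM, but below KAT2A in NC cells, at 8.58 ± 0.212 FPKM, where its libraries overlapped those of NCOA3. KAT5 was last in every group, at 2.4 and 2.3 FPKM in CBP-arm and NC cells at 60h and at 3.45 and 2.9 FPKM in CBP-arm and NC cells at 0h. Neighbours in rank also overlapped for NCOA3 and KAT2A and for KAT7 and KAT2B in CBP-arm cells at 60h, and for KAT2B and CREBBP in NC cells at 0h. By their means over all libraries, the 9 genes lay between percentiles 21.1 (KAT5) and 73.6 (KAT8) of the genes tested. None varied widely: the highest group mean was 1.22 times (KAT6B) to 1.72 times (CREBBP) the lowest.

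**Figure D1:**
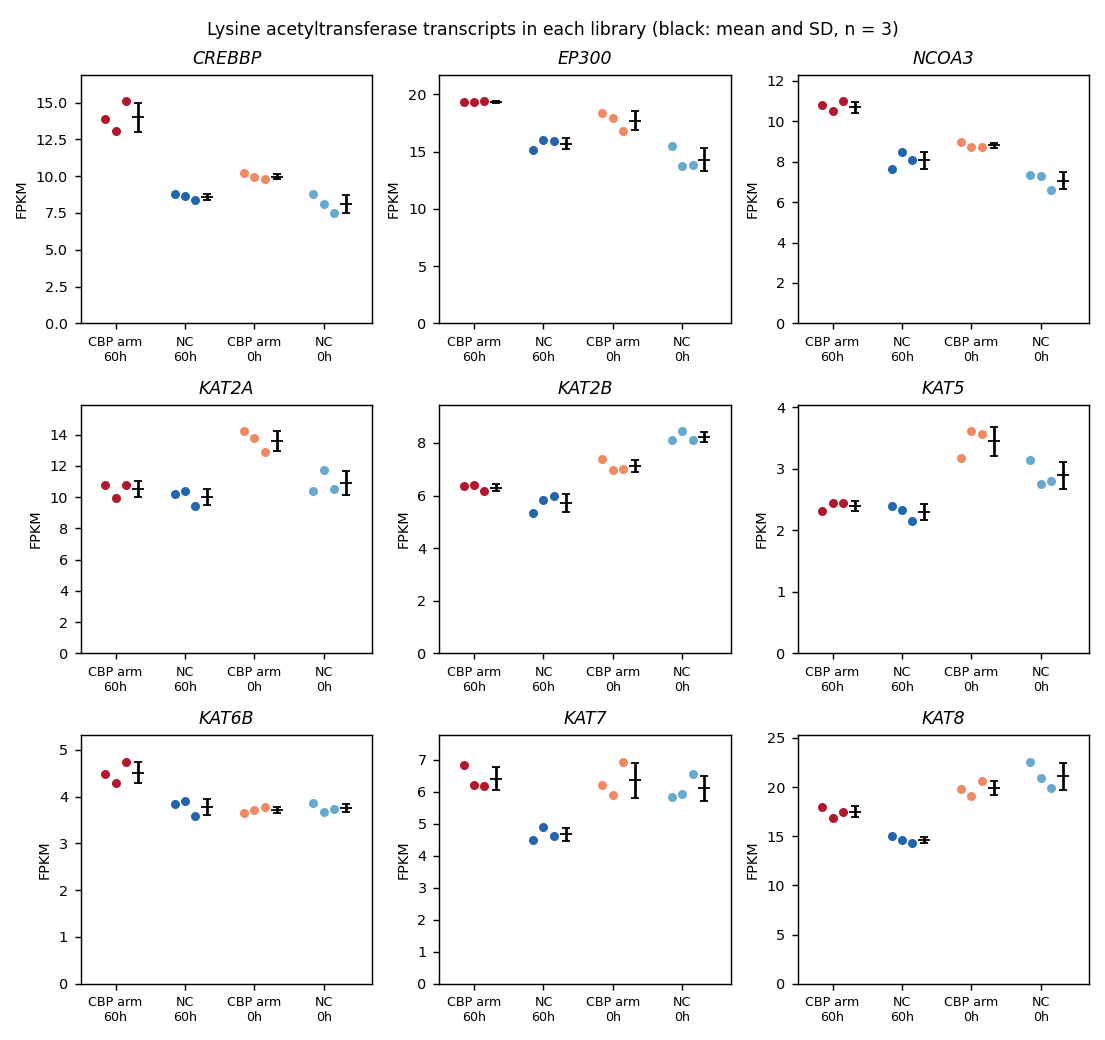
FPKM of the 9 acetyltransferase genes in each of the 12 libraries (coloured points), with group mean and SD in black (n = 3 each). CREBBP in CBP-arm cells at 60h, at 13.1 to 15.1 FPKM, lies above all other libraries, and KAT2B is highest in NC cells at 0h, at 8.1 to 8.44 FPKM.

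CREBBP and EP300, the genes of the proteins that SGC-CBP30 binds, were both higher in CBP-arm cells, and CREBBP more so at 60h. CREBBP (ENSSSCG00000007951, chromosome 3, 38388366 to 38530243 in Sscrofa11.1) had 13.9, 13.1 and 15.1 FPKM in CBP-arm cells at 60h, against 8.77, 8.62 and 8.35 FPKM in NC cells. At 0h it had 10.2, 9.94 and 9.8 FPKM in CBP-arm cells, against 8.76, 8.09 and 7.53 FPKM in NC cells. Every CBP-arm library was above every NC library of its stage, and the gap was widest at 60h. The rise was 1.63-fold at 60h (log2 change 0.65, SE 0.056, limma adjusted p = 5.79e-07) and 1.23-fold at 0h (0.27, SE 0.056, limma adjusted p = 0.00129).

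EP300 (ENSSSCG00000000068, chromosome 5, 7311165 to 7394515) had 19.3, 19.3 and 19.4 FPKM in CBP-arm cells at 60h, against 15.1, 16.0 and 15.9 FPKM in NC cells. At 0h it had 18.4, 17.9 and 16.8 FPKM in CBP-arm cells, against 15.5, 13.7 and 13.8 FPKM in NC cells. Again the arms did not overlap at either stage. EP300 rose 1.23-fold at 60h (log2 change 0.29, SE 0.048, limma adjusted p = 0.000185) and 1.24-fold at 0h (0.29, SE 0.048, limma adjusted p = 0.000232). The sum of both transcripts was 33.3 ± 1.08 FPKM in CBP-arm cells and 24.2 ± 0.383 FPKM in NC cells at 60h, and 27.7 ± 1.0 and 22.4 ± 1.58 FPKM in CBP-arm and NC cells at 0h (SD, n = 3 each).

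NCOA3, a nuclear receptor coactivator that recruits CBP and p300, moved with them. NCOA3 (ENSSSCG00000007458, chromosome 17, 49528275 to 49660471) had 10.8, 10.5 and 11 FPKM in CBP-arm cells at 60h, against 7.65, 8.48 and 8.09 FPKM in NC cells. At 0h it had 8.97, 8.73 and 8.74 FPKM in CBP-arm cells, against 7.35, 7.27 and 6.58 FPKM in NC cells. The arms were apart at both stages. It rose 1.33-fold at 60h (log2 change 0.37, SE 0.047, limma adjusted p = 1.70e-05) and 1.25-fold at 0h (0.28, SE 0.047, limma adjusted p = 0.000243). CREBBP, EP300 and NCOA3 were called higher at both stages under every alternative of the fit that was run.

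These are bulk libraries, so more transcript per cell and more cells with the transcript cannot be told apart. Markers of muscle and of other mesenchymal cells differed between the arms as well. The summed FPKM of 10 fibroblast markers, several of which muscle cultures also express, was 4840 to 5200 in CBP-arm cells and 6470 to 6780 in NC cells at 60h, and 1670 to 1700 in CBP-arm and 2940 to 3070 in NC cells at 0h. That of 10 smooth muscle and pericyte markers was 2680 to 2880 in CBP-arm cells and 3840 to 3850 in NC cells at 60h, and 1430 to 1480 and 3600 to 3740 in CBP-arm and NC cells at 0h. The summed muscle markers stood at 1810 to 1980 FPKM in CBP-arm cells and 2720 to 2900 FPKM in NC cells at 60h, and at 736 to 781 and 2150 to 2160 FPKM in CBP-arm and NC cells at 0h. At 60h, 6 of the 10 fibroblast markers were lower and 3 higher in CBP-arm cells, as were 6 and 1 of 9 tested smooth muscle and pericyte markers and 6 and 4 of 10 muscle markers. At 0h, 8 fibroblast markers were lower and 1 higher, and all 9 smooth muscle and pericyte markers and all 10 muscle markers were lower. None of these markers was at 0 in every library. Of all genes tested, 27.0% were called lower and 44.7% higher at 60h, and 18.1% and 44.2% at 0h. The summed FPKM of 6 adipocyte markers, of which 4 averaged under 1 FPKM, was 1.63 to 1.81 in CBP-arm cells and 1.93 to 2.3 in NC cells at 60h, but higher in the CBP arm at 0h, at 9.05 to 9.99 in CBP-arm cells and 7.7 to 8.53 in NC cells. Of its 2 tested markers, 1 was higher and 1 lower at 60h, and 1 was higher and 1 did not pass at 0h (1 higher and 1 lower after median-of-ratios scaling). Genes of muscle differentiation were already present in NC cells at 0h. MYOG averaged 343 ± 10.0 FPKM in NC and 28.5 ± 0.996 FPKM in CBP-arm cells at 0h (SD, n = 3 each), and MYH3 163 ± 10.6 and 11.5 ± 1.05 FPKM. At 60h MYOG averaged 589 ± 13.2 FPKM in NC and 448 ± 9.5 FPKM in CBP-arm cells. The arms at 0h therefore differed in these genes as well. The part of the cell mixture, or of the degree of differentiation, in the values of the acetyltransferases was not tested.

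KAT2A and KAT2B, the genes of GCN5 and PCAF, parted at 0h. KAT2A (ENSSSCG00000017414, chromosome 12, 20638493 to 20647464) had 14.2, 13.8 and 12.9 FPKM in CBP-arm cells at 0h, against 10.4, 11.7 and 10.5 FPKM in NC cells. KAT2B (ENSSSCG00000024621, chromosome 13, 6985151 to 7099771) had 7.4, 6.99 and 7.0 FPKM in CBP-arm cells at 0h, against 8.13, 8.44 and 8.1 FPKM in NC cells. The arms did not overlap for either gene, with KAT2A above and KAT2B below the NC libraries. KAT2A rose 1.26-fold (log2 change 0.30, SE 0.056, limma adjusted p = 0.000512), while KAT2B fell 1.15-fold (-0.18, SE 0.045, limma adjusted p = 0.00358).

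At 60h the difference in KAT2A was not resolved and that in KAT2B was small. KAT2A had 10.8, 9.92 and 10.8 FPKM in CBP-arm cells and 10.2, 10.4 and 9.46 FPKM in NC cells, with a log2 change of 0.06 (95% interval -0.06 to 0.18, limma adjusted p = 0.35). KAT2B had 6.35, 6.4 and 6.16 FPKM in CBP-arm cells, against 5.34, 5.83 and 6.0 FPKM in NC cells. The libraries of KAT2B were apart by little, and its log2 change was 0.12 (SE 0.045, limma adjusted p = 0.0288). This call was lost after median-of-ratios scaling (0.0068, limma adjusted p = 0.907), in a fit of the 2 groups compared (limma adjusted p = 0.071), and without CBP-arm replicate 1 or 2 or NC replicate 1 at 60h (limma adjusted p = 0.0685, 0.0753 and 0.128).

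Of the MYST genes, KAT7, KAT8 and KAT6B were higher in CBP-arm cells at 60h, and none of these passed at 0h. KAT7 (ENSSSCG00000017553, chromosome 12, 25970966 to 26005006), which encodes the HBO1 enzyme that acts at replication origins, had 6.83, 6.21 and 6.19 FPKM in CBP-arm cells at 60h, against 4.5, 4.89 and 4.62 FPKM in NC cells. It rose 1.37-fold (log2 change 0.38, SE 0.062, limma adjusted p = 0.000142). At 0h it had 6.2, 5.89 and 6.94 FPKM in CBP-arm cells and 5.82, 5.94 and 6.55 FPKM in NC cells, which overlapped (0.05, 95% interval -0.09 to 0.18, limma adjusted p = 0.529).

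KAT8 (ENSSSCG00000031247, chromosome 3, 17362326 to 17373110) encodes MOF, which acetylates lysine 16 of histone H4. At 60h it had 18.0, 16.9 and 17.5 FPKM in CBP-arm cells, against 15.0, 14.6 and 14.3 FPKM in NC cells. At 0h the arms overlapped, with 19.8, 19.1 and 20.6 FPKM in CBP-arm cells and 22.6, 20.9 and 19.9 FPKM in NC cells. KAT8 rose 1.19-fold at 60h (log2 change 0.24, SE 0.046, limma adjusted p = 0.000503). At 0h its log2 change of -0.08 did not pass (limma adjusted p = 0.136), but it passed as lower without NC replicate 3 at 0h (-0.12, limma adjusted p = 0.036) and after median-of-ratios scaling (-0.21, limma adjusted p = 0.000751).

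KAT6B (ENSSSCG00000010316, chromosome 14, 77390790 to 77597674), the MORF gene, had 4.49, 4.3 and 4.75 FPKM in CBP-arm cells at 60h, against 3.84, 3.91 and 3.59 FPKM in NC cells (1.19-fold, log2 change 0.21, SE 0.047, limma adjusted p = 0.00186). At 0h it had 3.64, 3.71 and 3.78 FPKM in CBP-arm cells and 3.86, 3.68 and 3.74 FPKM in NC cells (log2 change -0.015, 95% interval -0.12 to 0.09, limma adjusted p = 0.801). The arms were apart at 60h and overlapped at 0h. After median-of-ratios scaling the rise at 60h was lost (0.10, limma adjusted p = 0.0697) and KAT6B passed as lower at 0h (-0.12, limma adjusted p = 0.0431).

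KAT5 (ENSSSCG00000012980, chromosome 2, 6560544 to 6572461) encodes TIP60, which acts in DNA repair and transcription. It had the fewest reads of the 9 genes, and its interval in the reference table overlaps RNASEH2C, so reads of both may not be told apart. At 0h it had 3.18, 3.61 and 3.56 FPKM in CBP-arm cells, against 3.15, 2.75 and 2.8 FPKM in NC cells (log2 change 0.19, SE 0.06, limma adjusted p = 0.0159). The arms were apart only by the small step between the lowest CBP-arm and the highest NC library. The call was lost after median-of-ratios scaling (0.09, limma adjusted p = 0.243) and without CBP-arm replicate 2 or 3 or NC replicate 2 or 3 at 0h (limma adjusted p = 0.0591, 0.0525, 0.062 and 0.0537). At 60h KAT5 had 2.31, 2.45 and 2.44 FPKM in CBP-arm cells and 2.4, 2.34 and 2.16 FPKM in NC cells and did not pass (log2 change 0.04, 95% interval -0.09 to 0.17, limma adjusted p = 0.538).

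Counted together, 7 of the 9 genes were higher and none lower in CBP-arm cells at 60h, where 71.6% of all genes tested were called, 44.7% as higher and 27.0% as lower (limma, adjusted p under 0.05). At 0h, 5 were higher and 1 lower, where 62.3% of all genes were called, 44.2% as higher and 18.1% as lower. The same 7 members had all CBP-arm libraries above all NC libraries at 60h and none had them all below, as had 46.1% and 28.2% of all genes. At 0h this held for 5 members above and 1 below, against 47.2% and 19.6% of all genes. With 9 genes counted, these shares were set against the background without a test. At an unadjusted p under 0.05, and by limma-voom on the recovered reads, the count of lower members at 60h was 0 as well. The median log2 change of the members was 0.24 at 60h and 0.19 at 0h, beside 0.10 and 0.12 over all genes tested at these stages.

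Part of these small rises depends on how libraries are scaled. Median-of-ratios scaling, which sets the typical gene equal between libraries, moved the median over all genes by -0.113 on the log2 scale at 60h and by -0.116 at 0h. The share of higher calls became 47.8% at 60h, instead of 62.4%, and 49.1% at 0h, instead of 71.0%. With this scaling, 5 members were higher and none lower at 60h (CREBBP, EP300, NCOA3, KAT7 and KAT8). At 0h, 4 were higher (CREBBP, EP300, NCOA3 and KAT2A) and 3 lower (KAT2B, KAT6B and KAT8). Over all genes the scaled counts were 3834 higher and 4192 lower at 60h, and 2987 and 3095 at 0h. Before scaling, 11636 genes were tested. CREBBP then changed by 0.53 at 60h and by 0.15 at 0h, and EP300 by 0.16 at each stage.

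**Figure D2:**
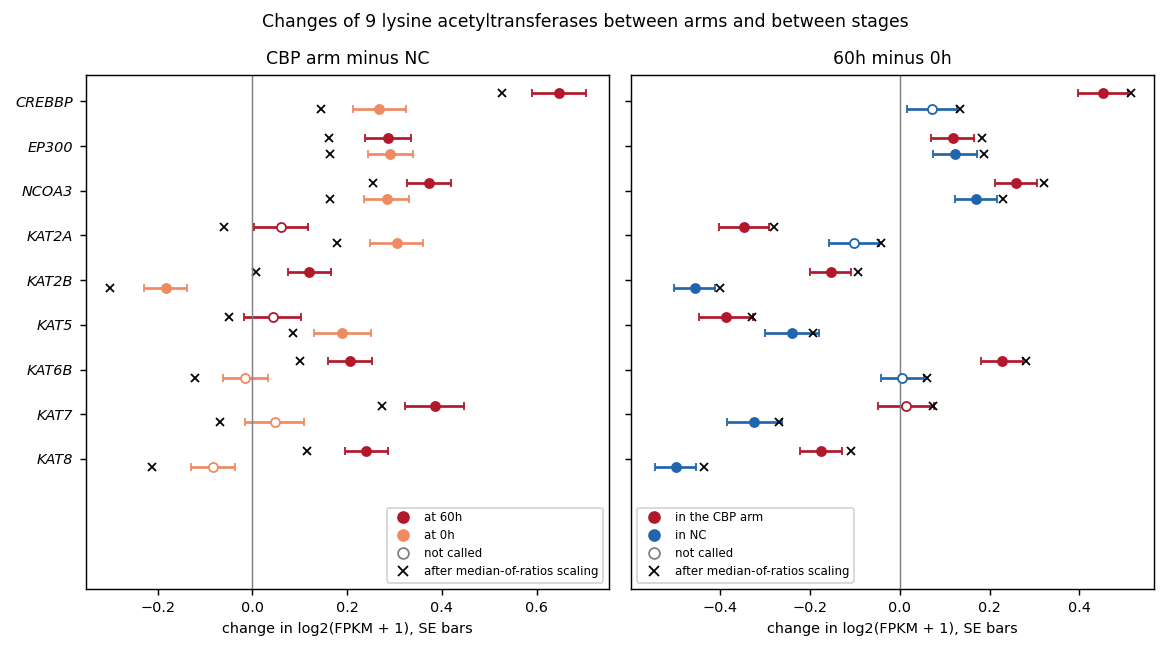
Change in log2(FPKM + 1) of the 9 genes, with SE bars, between CBP-arm and NC cells at each stage (left) and between 60h and 0h in each arm (right). Filled points passed limma at an adjusted p under 0.05, open points did not, and crosses give the change after median-of-ratios scaling. CREBBP at 60h, at 0.65, has the largest difference between arms.

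Between stages, NC cells held less KAT8, KAT2B, KAT7 and KAT5 at 60h than at 0h. KAT8 and KAT2B each fell 1.44-fold, with log2 changes of -0.50 (SE 0.046, limma adjusted p = 1.21e-06) and -0.46 (SE 0.045, limma adjusted p = 2.04e-06). KAT7 fell 1.31-fold (-0.32, SE 0.062, limma adjusted p = 0.000618) and KAT5 fell 1.26-fold (-0.24, SE 0.06, limma adjusted p = 0.00371). For each of these 4 genes the 60h libraries were all below the 0h libraries. NCOA3 rose 1.14-fold (0.17, SE 0.047, limma adjusted p = 0.0071). CREBBP did not pass in NC cells (0.07, 95% interval -0.05 to 0.19, limma adjusted p = 0.273), nor did KAT2A or KAT6B, but CREBBP passed as higher after median-of-ratios scaling (0.13, limma adjusted p = 0.0403) and after TPM scaling (0.16, limma adjusted p = 0.0422). In all, 2 members were higher and 4 lower at 60h in NC cells, where 66.8% of all genes tested were called, 28.8% as higher and 38.0% as lower. The share of higher calls, 43.1%, became 53.0% after scaling to TPM.

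In CBP-arm cells CREBBP and KAT6B were higher and KAT5 and KAT2A lower at 60h than at 0h. CREBBP rose 1.41-fold (log2 change 0.45, SE 0.056, limma adjusted p = 1.31e-05), KAT6B 1.22-fold (0.23, SE 0.047, limma adjusted p = 0.000911) and NCOA3 1.22-fold (0.26, SE 0.047, limma adjusted p = 0.000333). KAT5 fell by a factor of 1.44 (-0.39, SE 0.06, limma adjusted p = 9.18e-05) and KAT2A fell 1.30-fold (-0.35, SE 0.056, limma adjusted p = 0.000125). KAT8 fell by 0.18 and KAT2B by 0.15 on the log2 scale (limma adjusted p = 0.00433 and 0.00794), and both calls were lost after scaling to TPM (limma adjusted p = 0.249 and 0.313), that of KAT2B also after median-of-ratios scaling (0.0926). KAT7 did not pass (0.014, 95% interval -0.12 to 0.15, limma adjusted p = 0.853). In all, 4 members were higher and 4 lower, where 72.7% of all genes tested were called, 31.3% as higher and 41.5% as lower. The share of higher calls over all genes, 43.0%, became 54.7% after scaling to TPM, which shifted their median log2 change by 0.101.

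EP300 was the gene whose stage change was least firm. It was higher at 60h by 0.12 on the log2 scale in CBP-arm cells (SE 0.048, limma adjusted p = 0.043) and by 0.12 in NC cells (SE 0.048, limma adjusted p = 0.0394). In CBP-arm cells the call was lost without any 1 of CBP-arm replicates 2 and 3 at 0h, CBP-arm replicates 1, 2 and 3 at 60h, and NC replicates 2 and 3 at 60h (limma adjusted p = 0.0506 to 0.165), and without a filter on low values (0.0714). In NC cells it was lost without any 1 of CBP-arm replicates 1 and 3 at 60h, NC replicates 2 and 3 at 0h, and NC replicates 2 and 3 at 60h (limma adjusted p = 0.0501 to 0.147), without a filter (0.0662), and in a fit of the 2 groups compared (0.072).

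The difference between arms itself differed between stages for 6 of the 9 genes. As log2 change at 60h minus that at 0h, it was more positive at 60h for CREBBP (0.38, SE 0.079), KAT7 (0.34, SE 0.088), KAT8 (0.32, SE 0.065), KAT2B (0.30, SE 0.063) and KAT6B (0.22, SE 0.067). It was less positive at 60h for KAT2A (-0.24, SE 0.079). For KAT2B the arm difference changed sign, from -0.18 at 0h to 0.12 at 60h, and was not larger in size at 60h. Over all genes tested, 50.9% passed this test, 24.3% with a difference above 0 and 26.7% below 0 (limma, adjusted p under 0.05). For EP300 the difference of differences was -0.0048 (95% interval -0.15 to 0.14, limma adjusted p = 0.96), for NCOA3 0.09 (-0.06 to 0.24, limma adjusted p = 0.286) and for KAT5 -0.15 (-0.33 to 0.04, limma adjusted p = 0.172). Median-of-ratios scaling left these 9 results on the same side of the threshold. The treatment text gives 48 h of exposure for 0h and 60 h for 60h, so stage and exposure length cannot be told apart.

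Ratios within a library do not depend on library scaling, so 3 pairs were also compared as FPKM ratios. CREBBP stood at 0.68 to 0.778 of EP300 in CBP-arm cells at 60h, against 0.526 to 0.581 in NC cells, and at 0.552 to 0.583 in CBP-arm and 0.546 to 0.592 in NC cells at 0h. The arms were apart at 60h and overlapped at 0h. KAT2A was 1.84 to 1.98 times KAT2B in CBP-arm cells at 0h, against 1.28 to 1.39 times in NC cells, and 1.55 to 1.75 times in CBP-arm and 1.58 to 1.92 times in NC cells at 60h. Here the arms were apart at 0h and overlapped at 60h. KAT7 was 0.353 to 0.379 of KAT8 in CBP-arm cells and 0.301 to 0.335 in NC cells at 60h, and 0.308 to 0.337 and 0.258 to 0.33 in CBP-arm and NC cells at 0h.

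Within 1 stage, 3 libraries against 3 cannot give an exact permutation p below 0.1. That smallest value was reached for CREBBP over EP300 and for KAT7 over KAT8 at 60h and for KAT2A over KAT2B at 0h (two-sided). With the arm labels permuted within both stages, the smallest possible p is 0.005 over 400 arrangements. This test takes the log2 difference between arms averaged over both stages. It was 0.17 for KAT7 over KAT8 (exact permutation p = 0.025, adjusted over 3 pairs 0.075). CREBBP over EP300 had 0.20 (exact permutation p = 0.07, adjusted 0.085), from 0.40 at 60h and -0.01 at 0h. KAT2A over KAT2B had 0.23 (exact permutation p = 0.085, adjusted 0.085), from -0.07 at 60h and 0.54 at 0h. None passed after adjustment, but the average dilutes a difference present at 1 stage only. KAT7 over KAT8 passed without NC replicate 3 at 0h (0.22, adjusted exact permutation p = 0.015).

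**Figure D3:**
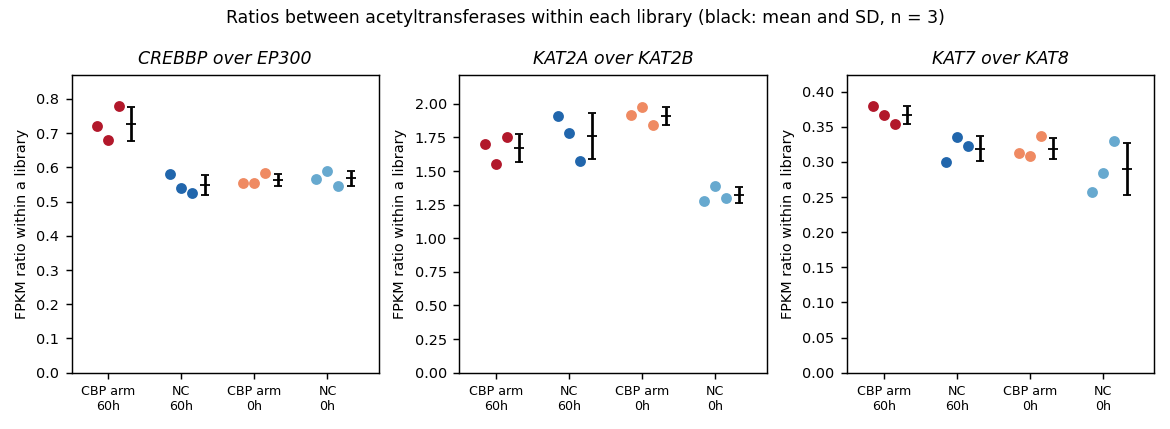
FPKM ratio of each of 3 pairs within each library (coloured points), with group mean and SD in black (n = 3 each). CREBBP over EP300 is highest in CBP-arm cells at 60h, at 0.726 ± 0.0495, and KAT2A over KAT2B is lowest in NC cells at 0h, at 1.32 ± 0.0598.

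Acetyltransferases act in complexes, and 57 of 59 listed subunits of the GCN5 and PCAF, TIP60, MOZ, MORF and HBO1, and MOF complexes could be tested. In CBP-arm cells 44 of the 57 were higher and 5 lower at 60h, or 77.2% and 8.77%, and 35 were higher and 5 lower at 0h, or 61.4% and 8.77%. Of all genes tested, 44.7% were called higher and 27.0% lower at 60h, and 44.2% and 18.1% at 0h. After median-of-ratios scaling these counts became 32 higher and 8 lower at 60h and 17 higher and 11 lower at 0h. Over all genes the scaled counts were 3834 higher and 4192 lower at 60h, and 2987 and 3095 at 0h. Before scaling, 11636 genes were tested. The unscaled median log2 change of the subunits was 0.29 at 60h and 0.17 at 0h, beside 0.10 and 0.12 over all genes tested.

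Among 25 genes of the SAGA and ATAC complexes, which carry GCN5 or PCAF, 18 were higher and 2 lower in CBP-arm cells at 60h, and 14 and 2 at 0h (12 and 3, and 6 and 4, after median-of-ratios scaling). The background over all genes was 44.7% higher and 27.0% lower at 60h and 44.2% and 18.1% at 0h. With that scaling it was 3834 genes higher and 4192 lower at 60h, and 2987 and 3095 at 0h. USP22, the ubiquitin protease of SAGA, averaged 40.8 ± 1.45 FPKM in CBP-arm cells and 23.1 ± 0.576 FPKM in NC cells at 60h (SD, n = 3 each; log2 change 0.80, SE 0.036, limma adjusted p = 1.80e-09). TRRAP, the large scaffold shared by SAGA and the TIP60 complex, averaged 15.5 ± 0.443 FPKM in CBP-arm cells and 9.94 ± 0.208 FPKM in NC cells at 60h (0.59, SE 0.035, limma adjusted p = 1.97e-08). At 0h TRRAP averaged 12.7 ± 0.206 FPKM in CBP-arm cells and 8.98 ± 0.283 FPKM in NC cells (0.46, SE 0.035, limma adjusted p = 3.66e-07), and TAF12 was 1.73-fold higher.

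Of 16 TIP60 complex genes, 14 were higher in CBP-arm cells at 60h and the rest did not pass (10 higher and 1 lower after median-of-ratios scaling). At 0h, 12 were higher and 1 lower (7 and 3 after that scaling). Without it, 44.7% of all genes were called higher and 27.0% lower at 60h, and 44.2% and 18.1% at 0h. With it, 3834 genes were called higher and 4192 lower at 60h, and 2987 and 3095 at 0h. EP400, an ATPase of the TIP60 complex, averaged 12 ± 0.279 FPKM in CBP-arm cells and 7.64 ± 0.253 FPKM in NC cells at 60h. MBTD1, a reader of methylated histone H4, averaged 9.85 ± 0.217 FPKM in CBP-arm cells and 6.19 ± 0.342 FPKM in NC cells at 60h, and 4.27 ± 0.0436 and 4.64 ± 0.186 FPKM in CBP-arm and NC cells at 0h. The arm difference of MBTD1 at 60h exceeded that at 0h by 0.69 on the log2 scale (SE 0.063, limma adjusted p = 2.60e-06).

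The 8 tested partners of MOZ, MORF and HBO1 were divided at 60h, with 6 higher and 2 lower in CBP-arm cells, also after median-of-ratios scaling. Without this scaling 44.7% of all genes were called higher and 27.0% lower at 60h, so the 2 lower genes are near the background. With it, 3834 genes were called higher and 4192 lower. The scaffolds of HBO1 went in both directions. JADE1 averaged 9.04 ± 0.445 FPKM in CBP-arm cells and 19.0 ± 0.463 FPKM in NC cells at 60h (log2 change -1.0, SE 0.04, limma adjusted p = 6.62e-10), and JADE2 1.47 ± 0.146 and 2.91 ± 0.197 FPKM in CBP-arm and NC cells. JADE3 averaged 7.8 ± 0.317 FPKM in CBP-arm cells and 4.39 ± 0.11 FPKM in NC cells (0.71, SE 0.042, limma adjusted p = 2.04e-08). MEAF6, a subunit shared with TIP60, was 1.64-fold higher. At 0h, 6 of the 8 were higher, where 44.2% of all genes were called higher and 18.1% lower. After median-of-ratios scaling 4 of the 8 were higher, where 2987 of all genes were called higher and 3095 lower. JADE1 was the 1 that fell (log2 change -0.40, SE 0.04, limma adjusted p = 3.79e-06). JADE2, lower at 60h, was among the 6 higher genes at 0h (log2 change 0.27, limma adjusted p = 0.00308). It then averaged 5.27 ± 0.0953 FPKM in CBP-arm cells and 4.21 ± 0.338 FPKM in NC cells.

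Of 11 genes of the MOF complexes, 8 were higher and 1 lower at 60h, and 6 and 1 at 0h (6 and 2, and 2 and 3, after median-of-ratios scaling). Of all genes, 44.7% were higher and 27.0% lower at 60h, and 44.2% and 18.1% at 0h. The counts over all genes after that scaling were 3834 higher and 4192 lower at 60h, and 2987 and 3095 at 0h. KANSL3 averaged 8.59 ± 0.13 FPKM in CBP-arm cells and 5.84 ± 0.146 FPKM in NC cells at 60h, and HCFC1 11.8 ± 0.432 and 8.53 ± 0.243 FPKM in CBP-arm and NC cells at 0h.

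Among 14 tested genes of other acetyltransferases, 7 were higher and 2 lower in CBP-arm cells at 60h, and 6 and 2 at 0h (7 and 3, and 3 and 4, after median-of-ratios scaling). The counts before that scaling are near the background of 44.7% higher and 27.0% lower at 60h and 44.2% and 18.1% at 0h. After it, the background was 3834 genes higher and 4192 lower at 60h, and 2987 and 3095 at 0h. NCOA1, which belongs to the same p160 coactivator family as NCOA3, averaged 13.2 ± 0.547 FPKM in CBP-arm cells and 7.48 ± 0.681 FPKM in NC cells at 60h (log2 change 0.74, SE 0.055, limma adjusted p = 1.36e-07), but 6.28 ± 0.123 and 7.2 ± 0.227 FPKM in CBP-arm and NC cells at 0h. HAT1, which acetylates newly made histone H4, averaged 16.2 ± 1.32 FPKM in CBP-arm cells and 9.41 ± 0.862 FPKM in NC cells at 0h (0.72, SE 0.078, limma adjusted p = 7.35e-06). ATAT1, the tubulin acetyltransferase, was 1.85-fold higher at 60h and 1.48-fold higher at 0h. ACAT1, a mitochondrial thiolase that is better known for ketone body metabolism, averaged 43.4 ± 2.33 FPKM in CBP-arm cells and 72.9 ± 1.19 FPKM in NC cells at 60h.

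**Figure D4:**
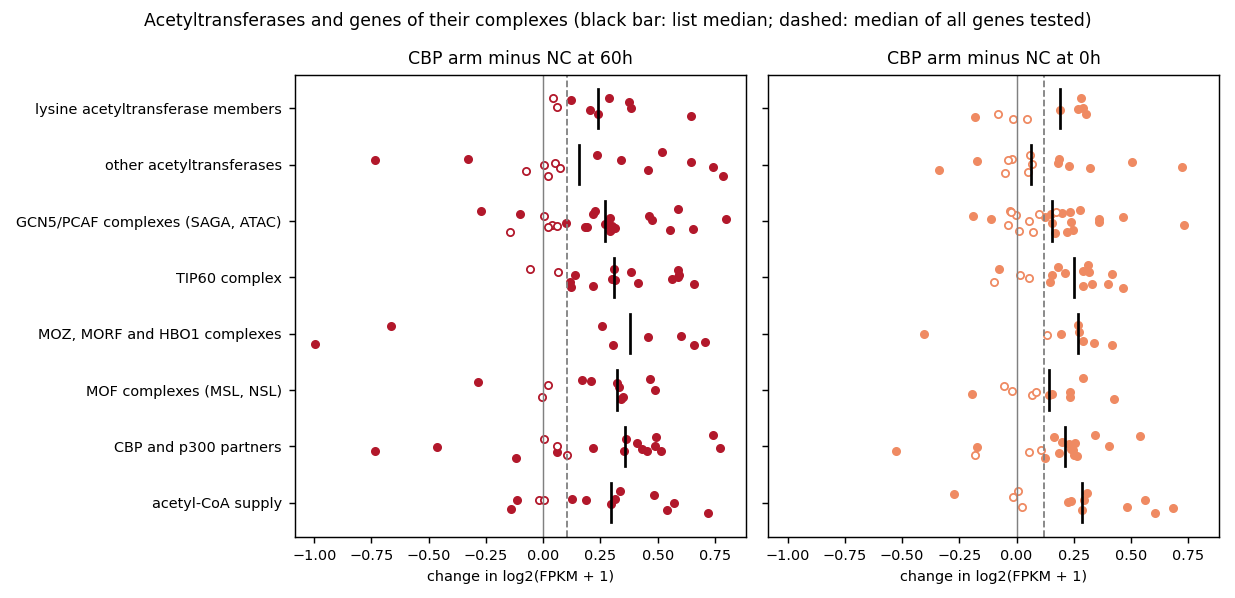
Change in log2(FPKM + 1) between CBP-arm and NC cells for each tested gene of 8 lists, at 60h (left) and at 0h (right). Filled points passed limma at an adjusted p under 0.05, black bars are list medians, and the dashed line is the median of all genes tested, 0.10 at 60h and 0.12 at 0h. JADE1, at -1.0, is the lowest point at 60h.

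The genes with the most similar pattern were sought among 7077 named genes with a mean of 5 FPKM or more, by Pearson's r of log2(FPKM + 1) over the 12 libraries, which share their 4 groups. For CREBBP these were UBE2R2 (r = 0.987), DUSP4 (0.987), TK2 (0.982), SIRT1 (0.982) and ARID4B (0.981). DUSP4 averaged 14.4 FPKM in CBP-arm cells and 5.38 FPKM in NC cells at 60h, and SIRT1, a deacetylase, 8.16 and 4.86 FPKM in CBP-arm and NC cells at 60h. For EP300 they were ANKFY1 (r = 0.968), TRAPPC9 (0.967), OSBP (0.967), ACACA (0.963) and POLR2B (0.961). These short lists were not stable. With 1 library left out, 2 to 5 of the 5 genes of CREBBP and 1 to 5 of those of EP300 remained.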

How the data were processed

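RNA-seq libraries of 12 samples were read from 1 table of FPKM values that the authors deposited, with 1 column per library. The submitters' processing notes name Trimmomatic, featureCounts and the build Sscrofa11.1. The sources used here give no versions, aligner, annotation release or strand setting, so reads of overlapping or antisense genes, and reads shared by close paralogs, may be assigned uncertainly. Gene names came from the table for 16801 genes and, by identifier, from a reference table for 687. Positions were matched by symbol to the RefSeq table of Sscrofa11.1.

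All 22521 genes above 0 gave whole reads within a tolerance of 0.001 once the FPKM steps had been solved for gene length and library total. Replicates differed by more than counting noise (chi-square per degree of freedom 2.16 to 4.7).

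The log2(FPKM + 1) values of 11636 genes entered a model of 4 group means with a trended empirical Bayes spread (limma 3.58.1, R 4.3.3). Tests were two-sided with Benjamini-Hochberg adjustment over all genes tested, and a call means an adjusted p under 0.05. Fold values are ratios of mean FPKM, and intervals are pointwise. Log2 changes with a pseudocount of 1 understate changes of low genes. The steps were tested on simulated data.

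The alternatives were a pseudocount of 0.1, no filter, TPM scaling, median-of-ratios scaling, only the groups compared, a replicate block, each library left out and, added after the data were seen, limma-voom on recovered reads and repeats of the search for similar genes. Members, lists and tests were chosen with earlier results of these data known. Named genes were the members, up to 4 called genes of each list with the largest change per comparison between arms, and the 5 genes closest in pattern to CREBBP and to EP300. Of the listed genes, KAT6A, ESCO2, TAF1, MRGBP, CITED4 and EID1 were not matched by name and are not analysed here. Same-numbered libraries of different groups did not deviate together (r of deviations -0.0935 to 0.082), so the main fit has no replicate block.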

Additional observations from a re-analysis of the deposited data

Results flagged for a closer look

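Each of 6 results was marked because the difference between CBP-arm and NC cells was not the same at 60h and at 0h by limma's interaction term. As log2 change at 60h minus log2 change at 0h, CREBBP had 0.38 (limma adjusted p = 0.0017), with arm differences of 0.65 at 60h and 0.27 at 0h. KAT7 had 0.34 (limma adjusted p = 0.00717), from 0.38 at 60h and 0.05 at 0h. KAT8 had 0.32 (limma adjusted p = 0.00134), from 0.24 at 60h and -0.08 at 0h. KAT2B had 0.30 (limma adjusted p = 0.00169), with opposite calls of 0.12 at 60h and -0.18 at 0h, the first of which was lost after median-of-ratios scaling. KAT6B had 0.22 (limma adjusted p = 0.0156), from 0.21 at 60h and -0.015 at 0h. KAT2A had -0.24 (limma adjusted p = 0.0221), from 0.06 at 60h and 0.30 at 0h. The call of KAT2A was lost when CBP-arm replicate 1 at 0h, CBP-arm replicate 2 at 60h, NC replicate 1 or 3 at 0h, or NC replicate 2 at 60h was left out (limma adjusted p = 0.0543, 0.0542, 0.0536, 0.0521 and 0.0531). The other 5 were called in all 18 alternatives of the fit that were run for this comparison. Of all genes tested, 50.9% were called for the same term, so a difference between stages was common in these data. By the treatment text, exposure length changed together with stage, so the 2 cannot be told apart.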

How the results depend on the processing

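Scaling had the widest effect. With median-of-ratios scaling 2987 of all genes were higher and 3095 lower in CBP-arm cells at 0h, in place of 5148 and 2102. In the same comparison 3 members were lower, in place of 1. The uncalled arm differences of KAT2A and KAT5 at 60h and of KAT7 at 0h turned to -0.0604, -0.0503 and -0.0687. With TPM scaling 2 members were lower at 60h than at 0h in CBP-arm cells, in place of 4, and the interaction of EP300 became 0.0257. Without a filter, and with only the groups compared, 1 member was higher at 60h in NC cells, in place of 2. With 1 library left out, members lower at 0h numbered 1 to 2, members higher at 60h in NC cells 1 to 2, and members with a negative interaction 0 to 1. The log2 ratio of KAT7 over KAT8 ranged from 0.13 to 0.22. Uncalled values changed sign with 1 library left out for EP300 (interaction, -0.0593 to 0.0255), KAT6B (arms at 0h, -0.027 to 0.0002, and stages in NC cells, -0.0139 to 0.035) and KAT7 (arms at 0h, -0.0103 to 0.0921, and stages in CBP-arm cells, -0.0308 to 0.0713). The replicate block changed 1 call of a member: EP300 at 60h against 0h in CBP-arm cells (0.12, limma adjusted p = 0.0527). KAT6A over KAT6B, planned as another ratio, was not run. Counting error was 1.76% to 6.43% per library, largest for KAT5. Over all genes, replicates differed by more than counting noise, so this error alone does not set the smallest change that can be seen.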

Other observations

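Of 18 tested genes of proteins that bind CBP and p300, 12 were higher and 3 lower in CBP-arm cells at 60h, and 13 and 2 at 0h (10 and 4, and 6 and 3, after median-of-ratios scaling). Of all genes tested, 44.7% were higher and 27.0% lower at 60h, and 44.2% and 18.1% at 0h. The counts over all genes after that scaling were 3834 higher and 4192 lower at 60h, and 2987 and 3095 at 0h. STAT3, a cytokine-driven transcription factor, averaged 46.4 ± 0.372 FPKM in CBP-arm cells and 26.8 ± 0.725 FPKM in NC cells at 60h (SD, n = 3 each; log2 change 0.77, SE 0.029, limma adjusted p = 3.62e-10). CITED2, which binds CBP and p300 in competition with HIF1A, averaged 71.1 ± 1.25 FPKM in CBP-arm cells and 103 ± 2.51 FPKM in NC cells at 0h (log2 change -0.53, SE 0.038, limma adjusted p = 2.24e-07).

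Acetyl-CoA is the substrate of acetyltransferases, and 13 genes of its metabolism were listed, not all of them suppliers. Of these, 9 rose and 2 fell in CBP-arm cells at 60h, and 9 rose and 1 fell at 0h. After median-of-ratios scaling, 7 rose and 4 fell at 60h, and 9 rose and 2 fell at 0h. CS, ACAT2, CRAT and NUDT7 were among those that rose at both stages before this scaling. The unscaled shares over all genes were the same, 44.7% higher and 27.0% lower at 60h and 44.2% and 18.1% at 0h. The scaled counts over all genes were 3834 higher and 4192 lower at 60h, and 2987 and 3095 at 0h. ACLY, which makes acetyl-CoA from citrate, averaged 120 ± 2.94 FPKM in CBP-arm cells and 72.3 ± 1.21 FPKM in NC cells at 60h, and 89.3 ± 2.0 and 55.3 ± 1.02 FPKM in CBP-arm and NC cells at 0h (log2 change 0.72 and 0.68, limma adjusted p = 3.83e-10 and 1.54e-09). ACSS2, which makes it from acetate, was 1.58-fold higher at 60h and 1.62-fold higher at 0h. SLC25A1, the mitochondrial citrate carrier, was 1.41-fold higher at each stage.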
